A study of Mus musculus with 11 samples.

Results

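The replication-dependent histone genes encode H2A, H2B, H3 and H4, the core proteins around which newly copied DNA is wound. They were taken as every row of the deposited expression table whose symbol starts with H2ac, H2bc, H3c or H4c and a digit, which gave 47 of 22377 genes. The pseudogene row H2ac5-ps held the same reads as H3c3 in every library, so the reads of this pair cannot be assigned to either row and are given under H3c3. This left 46 distinct rows, counted as 13 H2A, 13 H2B, 10 H3 and 10 H4 rows. Of these, 45 had a mean of at least 1 CPM (each library's counts scaled to the same total) and entered the tests. The row that did not is H4c11, at 0.0593 to 0.861 CPM, and the lowest tested mean was that of H4c12, at 2.20 CPM. In GRCm38, 39 rows lie on chromosome 13 between 21715763 and 23762386, and 8 lie on chromosome 3 between 96219865 and 96270132.

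Cells make these mRNAs in S phase, while DNA is copied, and degrade them when copying stops. Most have no poly(A) tail and end in a stem-loop bound by the protein SLBP, and their transcription is driven by NPAT in histone locus bodies that form at the gene clusters. Some of the genes also give polyadenylated transcripts in cells that have stopped dividing. In the adult hippocampus, dividing cells are known from the dentate gyrus, and glia and microglia divide after injury.

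The values come from cap analysis of gene expression (CAGE), which reads capped 5′ ends and here was primed at random from total RNA, so transcripts without a poly(A) tail could enter. Hippocampi of male C57BL/6N mice gave 11 libraries in 11 groups of 1 library. The groups were naive and, for each of 5 conditions after photothrombosis (PT), the infarcted and the non-infarcted side. PT is a stroke model in which light of 565 nm, shone for 30 min on the left parietal area after rose bengal (35 mg/kg), blocks vessels of the cortex, while the tissue measured here is the hippocampus. The conditions were 7 d after PT, 7 d after PT with levetiracetam (LEV), 1 m after PT, 1 m after PT with LEV, and 2 m after PT following LEV withdrawal for 2 w. LEV is an anti-seizure drug, dissolved at 5 mg/mL in the water the mice drank. The series text starts LEV 1 month after PT, for 2 weeks, and gives 1 week of withdrawal. The LEV schedule of the 7 d and of the 1 m libraries is thus not known, and the withdrawal length differs from the labels. The series text names mice of 8 to 10 and of 65 to 85 weeks, but the labels do not assign an age to a library. Whether a pair of sides came from shared animals, and how many animals made up a library, is not stated either.

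Library totals ran from 13382623 to 22377376 reads, with 93.0 to 96.1% of them in listed genes, and a count of 0 would allow up to 0.134 to 0.224 CPM. The 8 neuron markers summed to 5186 to 6099 CPM in every library, while the 6 choroid plexus markers ranged from 55.0 to 4796 CPM. With 1 library per group, every p-value measures only the spread between these libraries. In such bulk tissue, fewer cells of a type and less RNA per cell cannot be told apart. Histone paralogs are nearly alike in their coding parts, and the sources used here do not give how reads with several matches were assigned, so levels of single members are uncertain. In addition, 13 of the distinct rows, 12 of them H2B, had the same reads as a predicted transcript (for example H2bc12 and Gm44390), and the values of such a pair cannot be separated. H2ac21 and H2bc21, same-strand neighbours 810 bases apart, differed by only 1.94 to 4.80 CPM in every library and may share reads.

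Promoter sequences from RefSeq (GRCm38.p6) are shown for the 4 rows that stood highest on the infarcted side at 7 d against the other side, and for H3c13 and H4c2, the rows with the largest difference between times. The windows reach up to 250 bases before RefSeq's start of the gene, without annotated protein-coding exons, and run 5′ to 3′ on the gene's strand. Capitals mark matches on either strand. CCAAT is the motif bound by the factor NF-Y. A second motif, TATAA, is the core bound by the TATA-binding protein. The octamer ATTTGCAT is known from H2B promoters and is bound by Oct-1. The 6 windows, in the order printed, lie at chr13:23745603-23745771 (minus strand), chr13:23752095-23752266 (plus strand), chr13:22035644-22035820 (minus strand), chr13:23533625-23533874 (plus strand), chr3:96268404-96268653 (plus strand) and chr13:23756687-23756936 (plus strand).
H3c3: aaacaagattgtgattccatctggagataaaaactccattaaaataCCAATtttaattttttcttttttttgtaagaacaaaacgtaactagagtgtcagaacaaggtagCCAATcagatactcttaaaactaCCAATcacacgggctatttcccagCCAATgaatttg
H3c2: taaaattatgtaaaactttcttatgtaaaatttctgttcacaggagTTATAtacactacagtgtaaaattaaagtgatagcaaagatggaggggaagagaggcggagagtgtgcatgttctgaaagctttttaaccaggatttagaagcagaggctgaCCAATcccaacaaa
H2ac12: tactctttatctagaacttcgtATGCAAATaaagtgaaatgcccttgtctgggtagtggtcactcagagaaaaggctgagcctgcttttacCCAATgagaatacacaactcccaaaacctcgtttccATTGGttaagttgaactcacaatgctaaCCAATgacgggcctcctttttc
H2ac10: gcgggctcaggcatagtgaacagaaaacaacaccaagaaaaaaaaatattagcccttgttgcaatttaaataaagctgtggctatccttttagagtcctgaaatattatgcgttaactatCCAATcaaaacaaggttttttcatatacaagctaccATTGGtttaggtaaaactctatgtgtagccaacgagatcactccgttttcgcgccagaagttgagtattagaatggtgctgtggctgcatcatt
H3c13: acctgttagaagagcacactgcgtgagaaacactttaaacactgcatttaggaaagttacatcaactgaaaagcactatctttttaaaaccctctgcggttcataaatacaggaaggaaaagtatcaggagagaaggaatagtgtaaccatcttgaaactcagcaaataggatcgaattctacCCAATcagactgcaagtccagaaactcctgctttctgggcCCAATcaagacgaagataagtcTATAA
H4c2: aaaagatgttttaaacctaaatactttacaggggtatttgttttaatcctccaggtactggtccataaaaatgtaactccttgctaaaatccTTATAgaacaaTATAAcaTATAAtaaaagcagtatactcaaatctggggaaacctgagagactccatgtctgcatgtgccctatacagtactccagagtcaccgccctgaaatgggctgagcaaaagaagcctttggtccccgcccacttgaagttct

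CCAAT occurred 4 times in the H3c3 window, 3 times in that of H2ac12, 2 times in those of H2ac10 and H3c13, 1 time in that of H3c2 and not in that of H4c2. The octamer was found in the H2ac12 window, and TATAA in those of H3c2 and H3c13 (1 time each) and H4c2 (3 times). Over the full 250 bases, 41 histone rows had a window in the RefSeq table. CCAAT was present in 35 of the 41, against 33.8% of all 32851 windows, and the count was 13 of 13 for H2A, 11 of 11 for H2B, 8 of 8 for H3 and 3 of 9 for H4. TATAA was present in 23 of 41 (22.8% of all windows). The octamer was present in 10 of 41 (1.6% of all windows), which were 5 of 13 H2A, 5 of 11 H2B, 0 of 8 H3 and 0 of 9 H4 windows. Paired H2A and H2B genes start 176 to 302 bases apart, so their windows can overlap and the same match can count for both. The H2ac12 window, with its octamer, lies between the starts of H2ac12 and H2bc12. These matches describe letters and not bound sites, and CAGE start positions within genes were not analysed here.

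Summed over the 46 rows, histone reads made up 0.25 to 0.518% of a library. The sum was 3305 CPM in naive, 3523 CPM (infarcted) and 2904 CPM (non-infarcted) at 7 d, and 3048 and 3256 CPM at 7 d with LEV. It was 3881 and 3779 CPM at 1 m, 5183 and 4813 CPM at 1 m with LEV, and 2652 and 2504 CPM at 2 m after withdrawal. The sums with LEV at 1 m were thus the highest and those at 2 m the lowest. H4 rows held most of these reads, from 1618 CPM (2 m, non-infarcted) to 3376 CPM (1 m LEV, infarcted). H2A rows held 189 to 375 CPM, H2B rows 381 to 754 CPM and H3 rows 314 to 678 CPM. The H3 row with the most reads, H3c6, ranged from 148 CPM (2 m, infarcted) to 223 CPM (7 d LEV, non-infarcted), and that of H2B, H2bc4, from 131 CPM (2 m, non-infarcted) to 276 CPM (1 m LEV, infarcted).

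**Figure D1:**
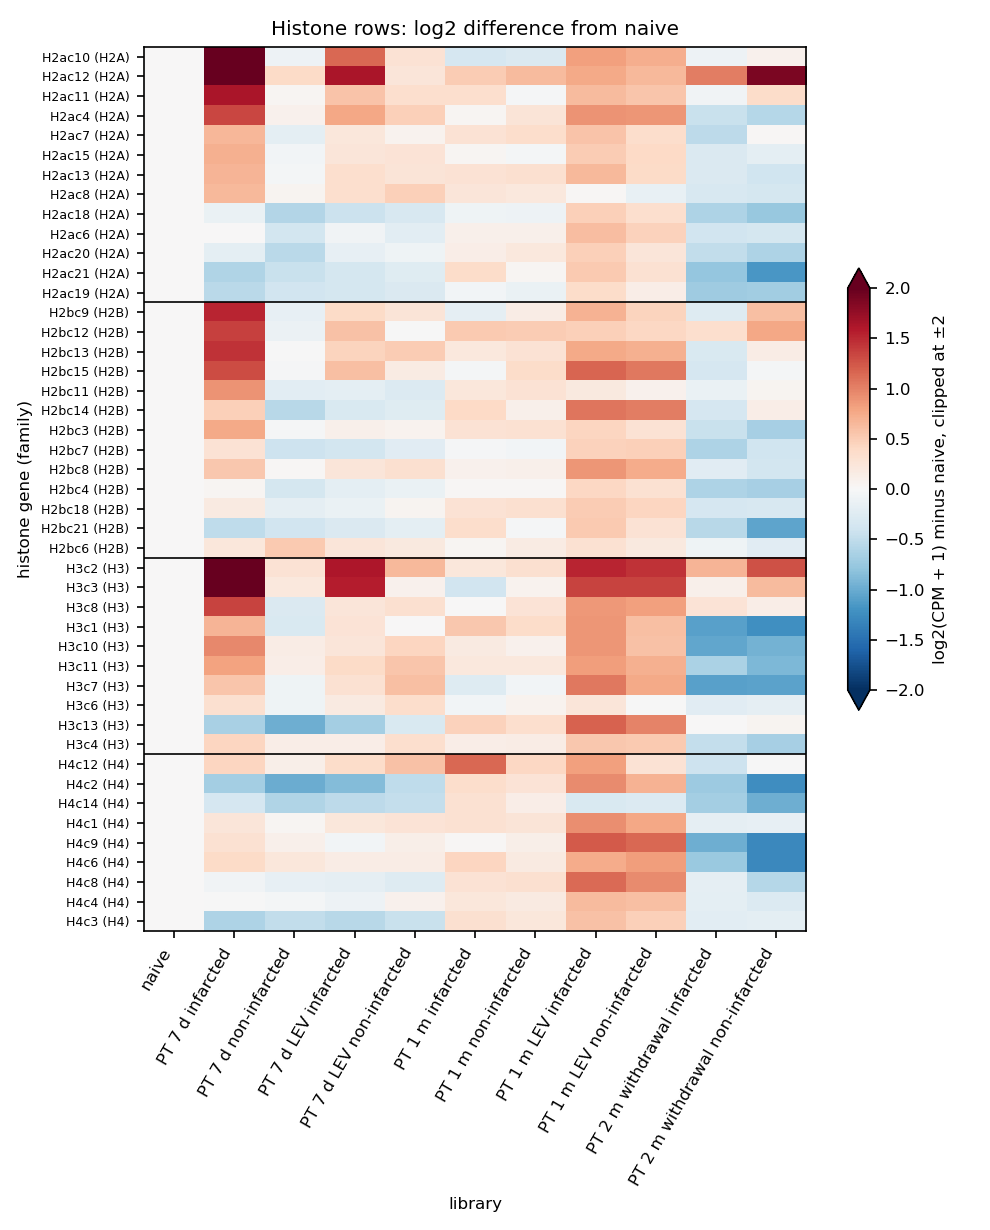
Color shows, for 45 histone rows (grouped by family) and 11 libraries, log2(CPM + 1) minus that of the naive library, clipped at 2 in either direction. Columns of PT 7 d infarcted and of both PT 1 m LEV libraries hold most of the red, and those of PT 2 m after withdrawal most of the blue.

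The rows did not share a single pattern across libraries. PT 7 d infarcted held the highest value of 18 of 45 rows, where 10.3% of all 16057 tested genes were highest there. These 18 were 8 H2A, 6 H2B and 4 H3 rows, with no H4 row and none of the 8 rows on chromosome 3. PT 1 m LEV infarcted held the highest value of another 21 rows (5 H2A, 5 H2B, 5 H3 and 6 H4), 7 of them on chromosome 3, and 11.3% of all genes were highest in that library. The lowest value fell in a 2 m library on the infarcted side for 15 rows and in the other 2 m library for 20, where 12.2% and 10.8% of all genes had theirs.

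The first question was which genes differed between the sides. At 7 d after PT, a set of weakly expressed H2A, H2B and H3 genes stood far higher on the infarcted side, led by H3c2, H2ac10, H3c3 and H2ac12. This pattern was smaller at 7 d with LEV and was not seen at 1 m or 2 m. With 1 library a side it has no replicate check.

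H3c3 (ENSMUSG00000069310.4, GRCm38 chromosome 13, 23744973 to 23745602, minus strand, a single exon), an H3 gene whose reads are also listed for the H2A pseudogene row H2ac5-ps (23746166 to 23746499), was at 2.07 CPM in naive, 18.8 CPM (infarcted) and 2.55 CPM (non-infarcted) at 7 d, 8.17 and 2.26 CPM at 7 d with LEV, 1.35 and 2.22 CPM at 1 m, 6.80 and 6.84 CPM at 1 m with LEV, and 2.29 and 3.74 CPM at 2 m. The 95% Poisson interval, which covers counting error only, was 16.8 to 20.9 CPM for PT 7 d infarcted and 1.83 to 3.46 CPM for the other side. PT 7 d infarcted was thus the highest library, PT 7 d LEV infarcted the next, and both PT 1 m LEV libraries followed. The ratio of sides was 7.36 at 7 d and 3.61 at 7 d with LEV.

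H2ac12 (ENSMUSG00000069302.5, chromosome 13, 22035164 to 22035568, minus strand), an H2A gene, was at 0.857 CPM in naive, 12.2 and 1.43 CPM at 7 d, 4.73 and 1.19 CPM at 7 d with LEV, 1.64 and 1.87 CPM at 1 m, 2.14 and 1.92 CPM at 1 m with LEV, and 2.78 and 5.81 CPM at 2 m (infarcted side given before the non-infarcted here and below). The intervals at 7 d were 10.6 to 13.9 and 0.908 to 2.15 CPM, and the ratio of sides was 8.49. Unlike H3c3, its second highest library was PT 2 m non-infarcted, and the PT 1 m LEV libraries lay close to those of PT 1 m.

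H2ac10 (chromosome 13, 23533906 to 23534304, plus strand) was at 3.28 CPM in naive, 22.2 and 2.99 CPM at 7 d, 8.53 and 4.24 CPM at 7 d with LEV, 2.39 and 2.51 CPM at 1 m, 6.55 and 6.08 CPM at 1 m with LEV, and 3.0 and 3.56 CPM at 2 m. H3c2 (chromosome 13, 23752267 to 23752886, plus strand), named after its values were seen, was at 1.64 CPM in naive, 26.1 and 2.24 CPM at 7 d, 7.07 and 3.16 CPM at 7 d with LEV, 2.09 and 2.30 CPM at 1 m, 6.61 and 6.17 CPM at 1 m with LEV, and 3.22 and 5.40 CPM at 2 m. Its ratio of sides at 7 d, 11.6, was the largest of the 45 rows. Both genes shared with H3c3 the order of PT 7 d infarcted, PT 7 d LEV infarcted and the PT 1 m LEV pair as the 4 highest libraries.

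**Figure D2:**
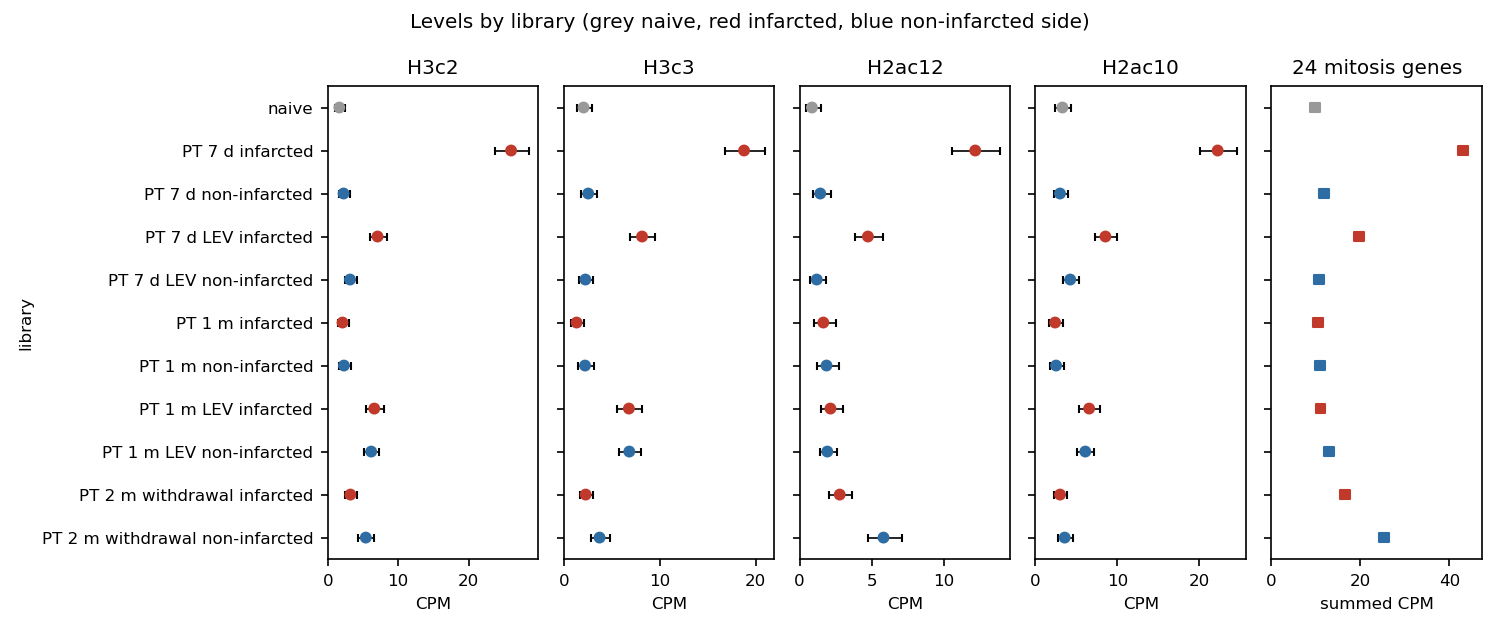
CPM of H3c2, H3c3, H2ac12 and H2ac10, and the summed CPM of 24 mitosis genes, in each of 11 libraries, with 95% Poisson intervals as bars for the 4 histone genes. PT 7 d infarcted lies apart at 26.1, 18.8, 12.2 and 22.2 CPM, and it also has the highest mitosis sum, at 43.0 CPM.

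Across the family, 13 of 45 rows were higher by a log2 (of CPM + 1) of at least 1 on the infarcted side at 7 d, and 0.853% of all tested genes were. At a smaller size, 24 of 45 reached 0.5 (4.19% of all genes) and 40 of 45 lay above 0 (59.4%). The median was 0.58, against 0.04 over all genes. The 13 rows were 4 H2A, 6 H2B and 3 H3 genes, with naive levels of 0.857 to 17.6 CPM (median 3.28). The other 32 rows had naive levels of 1.43 to 951 CPM (median 35.3), and their H4 members ranged from -0.13 to 0.33 at 7 d. By family the median was 0.73 for H2A, 0.78 for H2B, 0.74 for H3 and 0.21 for H4. H2bc14, at 2.97 and 0.934 CPM, lay just inside the size of 1 with 1.04, and H3c1, at 32.5 and 16.0 CPM, just outside with 0.98.

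Partners transcribed away from each other gave unequal values in some pairs and close ones in others. The starts of H2ac12 and H2bc12, an H2A and an H2B gene, lie 302 bases apart, and their log2 differences at 7 d were 2.44 and 1.49. H2ac11 and H2bc11 (270 bases) gave 1.60 and 1.11, and H2ac13 and H2bc13 (279 bases) 0.73 and 1.45. H2bc9, an H2B gene, gave 1.69 and its H3 partner H3c7 (660 bases) 0.64. The more abundant pair H2ac6 and H2bc4 (251 bases) gave 0.38 and 0.40, and the chromosome 3 pair H2ac20 and H2bc21 (239 bases) 0.34 and -0.13.

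At 7 d with LEV, only H3c3 (1.49) and H2ac12 (1.39) reached a log2 of 1 between sides, where 0.828% of all genes did, and the median over 45 rows was -0.07. The median was -0.00 at 1 m, 0.11 at 1 m with LEV and -0.01 at 2 m, and 0 rows reached 1 in these 3 conditions (0.0436%, 0.336% and 0.436% of all genes did). At 1 m with LEV, 41 of 45 rows and 48.7% of all genes lay above 0. At 2 m, 5 rows were lower by at least 0.5 on the infarcted side (0.81% of all genes), among them H2ac12 at -0.85, and 3 were higher by as much (3.61% of all genes), H4c6 at 0.56, H4c2 at 0.52 and H2bc21 at 0.50.

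**Figure D3:**
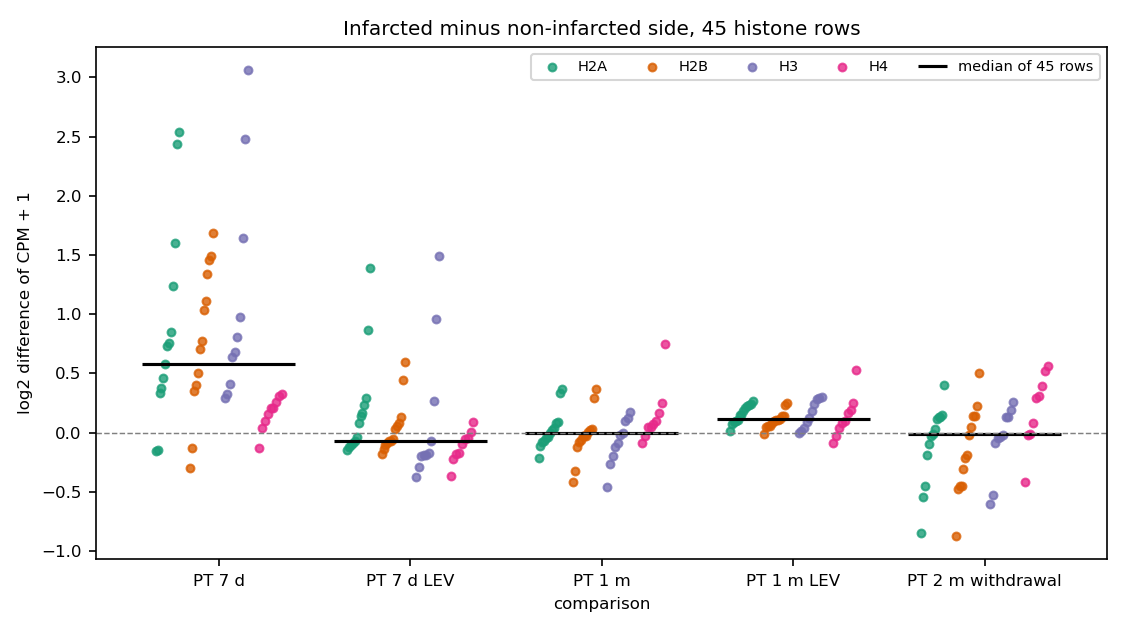
Each point is a histone row's log2(CPM + 1) on the infarcted minus the non-infarcted side in a PT condition, colored by family, and the line is the median of 45 rows. The median is 0.58 at PT 7 d and between -0.07 and 0.11 in the other conditions, and H3c3 and H2ac12 are the rows above 1 at PT 7 d LEV.

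Tested over the 5 pairs of libraries with condition as a block, 0 of 45 rows passed, and 0% of all genes did (limma, Benjamini-Hochberg adjustment, threshold 0.05). A side difference seen only in PT 7 d adds to the residual spread of this fit, which is thus a weak test of such a pattern. At an unadjusted p under 0.05 there were 6 histone rows and 1221 of all genes, and edgeR also called 0 rows and DESeq2 0. The smallest adjusted p was 0.418, for H3c1 (0.37, SE 0.11), followed by H4c8 at 0.15 and H2ac13 at 0.23. The median over 45 rows was 0.16 (0.02 over all genes) with 43 above 0 (59.4% of all genes), and it fell to 0.05 without the PT 7 d pair. Whether the side difference itself depended on time was tested on the 4 differences of the 7 d and 1 m conditions, and again 0 of 45 rows passed (0% of all genes; 929 genes and 5 histone rows at an unadjusted p under 0.05). Earlier results of these data for H3c3 and H2ac12 prompted this test. The side difference of H3c3 was greater by 2.22 at 7 d (SE 0.69, limma adjusted p = 0.836) and that of H2ac12 by 1.92 (SE 0.76, adjusted p = 0.843). The median of 45 rows was 0.13, and it turned to -0.13 without the PT 7 d pair.

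Against naive, PT 7 d infarcted was higher by at least 1 in 11 of 45 rows (1.63% of all genes), with a median of 0.48 over all 45. The median was 0.66 for the 37 rows on chromosome 13, 33 of them above 0, and -0.43 for the 8 on chromosome 3, with 1 above 0. Of all genes, 57.8% lay above 0. H3c13 and H4c2 were lower than in naive by at least 0.5 on both sides, and they were the only 2 of 45 rows to be so (4.22% of all genes).

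Genes of cell division were measured from lists chosen with earlier results of these data known. The 24 genes of G2 and mitosis were scarce, with 12 at 0 in at least 1 library and 4 passing the level needed for a test. Their sum was 43.0 CPM in PT 7 d infarcted, 25.3 CPM in PT 2 m non-infarcted, 19.6 CPM in PT 7 d LEV infarcted, 16.6 CPM in PT 2 m infarcted and 9.78 to 12.9 CPM in the remaining libraries. PT 7 d infarcted held the highest value of 19 of the 24 (10.3% of all tested genes) and stood above the other side for 24 of 24 (59.4%). Top2a, the topoisomerase that untangles copied DNA, was at 2.34 CPM there and 0.0623 CPM on the other side, and Mki67, the proliferation marker Ki-67, at 1.71 and 0.311 CPM. H2ac12 was the only histone row whose 4 highest libraries matched those of this sum, in the same order. That match was looked for after the values were seen, and 4.55% of all genes had the same 4 libraries on top and 0.0685% the same order. H3c3, H3c2 and H2ac10 instead had the PT 1 m LEV libraries among their 4 highest, where the mitosis sum was 11 and 12.9 CPM.

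The 31 S phase genes included replication enzymes, their loaders, cyclins, E2f factors, histone chaperones and Slbp. Of these, 26 were higher on the infarcted side at 7 d (59.4% of all tested genes) and 9 were highest in that library (10.3%). The sum was 231 CPM against 198 to 221 CPM in the other 10 libraries. Their median log2 difference of sides at 7 d was 0.11 over 23 tested genes. Linker histone genes of the same clusters (4 measured) had a median of 0.44, and 11 replication-independent variants, which are made outside S phase as well, 0.12. In this library microglia markers also stood high, with 10 of 10 above the other side. They summed to 1297 CPM in PT 7 d infarcted and to 558 to 786 CPM elsewhere. Phagocyte markers summed to 2267 CPM there and 1352 to 1957 CPM elsewhere, and 0 of 10 microglia and 1 of 10 phagocyte markers were at 0 in any library. Apoe made up most of the phagocyte sum, at 1962 CPM there and 1308 to 1894 CPM elsewhere. PT 7 d infarcted held the highest value of 10 of 10 phagocyte markers (10.3% of all tested genes). Astrocyte markers summed to 2808 CPM there and 2027 to 2536 CPM elsewhere, with 7 of 8 above the other side. Among them Gfap was at 678 and 352 CPM and Vim at 76.0 and 26.5 CPM on the infarcted and the other side. Oligodendrocyte precursor markers summed to 234 CPM there and 178 to 218 CPM elsewhere. The part of these cells in the histone difference was not tested.

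The second question was how 1 m after PT differed from 7 d. Histone genes of chromosome 3 and several H4 genes stood higher at 1 m, while H2ac10 and H2ac12, high in PT 7 d infarcted, stood lower. H3c13, an H3 gene, had the largest difference. The test used the 4 condition means over sides, with LEV as a term.

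H3c13 (ENSMUSG00000074403.2, chromosome 3, 96268654 to 96269141, plus strand) was at 24.9 and 19.7 CPM at 7 d, 24.4 and 32.0 CPM at 7 d with LEV, 54.9 and 50.5 CPM at 1 m, and 90.8 and 80.0 CPM at 1 m with LEV. Each 1 m library was above each 7 d library, and naive (39.7 CPM) and the 2 m libraries (39.9 and 41.1 CPM) lay between them. The 4 libraries of 1 m averaged 69.1 ± 19.5 CPM and those of 7 d 25.3 ± 5.07 CPM (SD). H3c13 was singled out because earlier results of these data showed it to follow time, so the test is not independent support. Its log2 difference was 1.39 (SE 0.13, limma adjusted p = 1.02e-07), and it ranged from 1.27 to 1.49 over 18 alternatives. Without a filter on low genes its limma adjusted p was 0.0556, which misses the threshold, and it passed in the other 17.

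H4c2 (ENSMUSG00000069266.5, chromosome 13, 23757013 to 23757409, plus strand), an H4 gene, was at 17.9 CPM in naive, 10.7 and 8.47 CPM at 7 d, 9.31 and 12.3 CPM at 7 d with LEV, 23.0 and 21.9 CPM at 1 m, 35.2 and 29.4 CPM at 1 m with LEV, and 10.4 and 6.94 CPM at 2 m. The naive and 1 m libraries were thus all above the 7 d and 2 m libraries. Its difference was 1.33 (SE 0.14, adjusted p = 7.71e-07). H4c3 (chromosome 13, 23697635 to 23698454) was at 534 CPM in naive, 348 and 381 CPM at 7 d, 365 and 391 CPM at 7 d with LEV, 665 and 622 CPM at 1 m, 799 and 745 CPM at 1 m with LEV, and 461 and 466 CPM at 2 m. It split the libraries as H4c2 did, with a difference of 0.92 (SE 0.13, adjusted p = 5.6e-05), and H4c8 gave 0.84 (SE 0.15, adjusted p = 0.000752).

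In all, 13 of 45 rows rose (5.71% of all genes did) and 2 fell (10.1%). With TMM scaling 5 rose and 0 fell, and these 5 were H3c13, H4c2, H4c3, H2ac21 and H2bc21. Without a filter on low genes 0 rose and 0 fell, and 24 genes were called in all. The 13 were 4 H2A, 3 H2B, 2 H3 and 4 H4 rows, and 9 of 9 H4 rows lay above 0 (median 0.45), where 40.8% of all genes did. On chromosome 3, 7 of 8 rows rose, with a median of 0.52. On chromosome 13, 6 of 37 rose and 2 fell, with a median of 0.10, and the median over all genes was -0.06. Next to H3c13 on chromosome 3, H2ac21 rose by 0.72, H2bc21 by 0.63, H2ac18 by 0.52, H2ac20 by 0.51, H4c14 by 0.45 and H2bc18 by 0.41. On chromosome 13, H2bc14 rose by 0.81, H2ac6 by 0.48 and H3c1 by 0.43. H2ac21 averaged 36.1 ± 5.15 CPM over 4 libraries at 1 m and 21.5 ± 2.34 CPM at 7 d, and H2ac20 78.6 ± 8.36 and 55.1 ± 7.26 CPM. Levels without overlap, each 1 m above each 7 d library, were seen in 13 of 45 rows (10.8% of all genes), 8 of them on chromosome 3, and the reverse in 0 of 45 (19.1%).

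The 2 rows that fell were H2ac12 (-0.63, SE 0.19, limma adjusted p = 0.0276) and H2ac10 (-0.72, SE 0.22, adjusted p = 0.0315). Both rest on the infarcted side at 7 d: without PT 7 d infarcted they gave -0.02 and -0.08 and 0 rows fell. Their calls also ended with TMM scaling, edgeR or DESeq2, and without PT 7 d LEV infarcted or without either library of PT 1 m. H3c3, with the same side pattern, gave -0.55 (adjusted p = 0.188) and ranged from -1.17 to 0.07 over the alternatives.

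**Figure D4:**
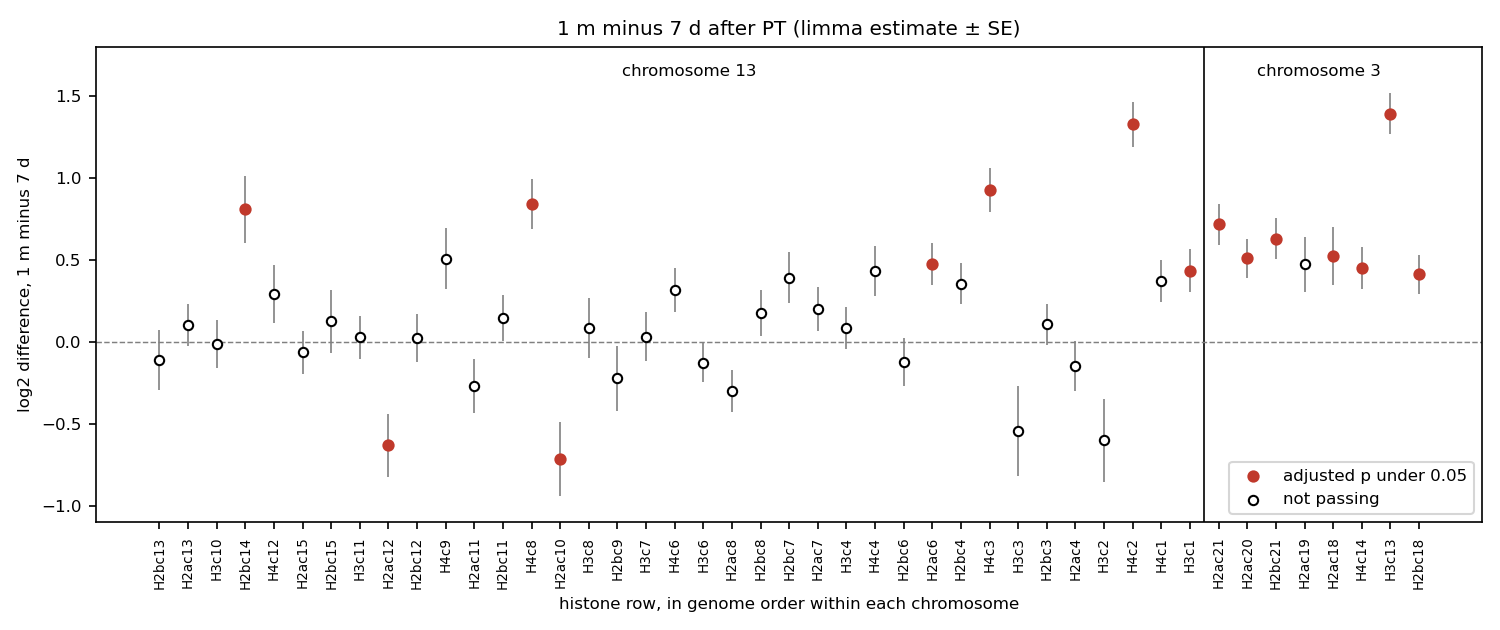
Points give each histone row's log2 difference of 1 m minus 7 d after PT from limma, with the SE as bars, in genome order on chromosomes 13 and 3, and red points have an adjusted p under 0.05. All 8 rows on chromosome 3 lie above 0 (0.41 to 1.39), while the 37 on chromosome 13 range from -0.72 to 1.33.

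The fit had 1 residual degree of freedom, to which the other genes lent 21.6. Leaving out 1 library at a time, 7 to 21 rows rose: 21 without PT 7 d infarcted, 7 without PT 7 d non-infarcted or without PT 1 m infarcted, and 8 without PT 7 d LEV non-infarcted. H3c13, H4c2, H4c3, H4c8, H2ac20, H2ac21 and H2bc21 passed whichever library was left out, and the other 6 rows that rose missed the threshold without at least 1 library. For 9 of 45 rows (6.81% of all genes) naive and each 1 m library stood above each 7 d and 2 m library. They were H2ac18, H2ac19, H2ac20, H2ac21, H2bc21, H4c14, H4c2, H4c3 and H4c8, so for these rows time after PT and this split of the libraries cannot be told apart. The reverse split was seen in 0 of 45 rows and in 11.9% of all genes. Markers of other cell types differed between the times as well. By limma, 6 of 6 choroid plexus markers fell (median -2.18), their sum being 3139 to 4796 CPM in the 7 d and 55.0 to 1773 CPM in the 1 m libraries. Of the phagocyte markers 7 of 8 tested fell (median -1.05), of microglia 3 of 10, of astrocytes 3 of 8, of oligodendrocyte precursors 2 of 6 and of endothelium 2 of 6, where 1 rose. Of the neuron markers 2 of 8 rose and 0 fell. Their part in the histone differences was not tested.

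Among the cell cycle and histone mRNA lists, Pola1 (-0.63) and Nasp, a histone chaperone (-0.79), fell, of 23 tested S phase genes. Of 20 tested genes for making and processing histone mRNA, Snrpg rose by 0.51, and Ncbp2, of the cap-binding complex (-0.76), and Coil, the coilin of Cajal bodies (-0.41), fell. For Pola1, Snrpg, Ncbp2 and Coil, naive lay with the 1 m libraries and 2 m with those of 7 d. For these genes too, time after PT and that split of the libraries cannot be told apart. By limma, 0 of 11 replication-independent variants and 0 of 4 linker histone genes passed, and Slbp stood at 0.14.

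The third question was what LEV changed. At 1 m, many histone rows stood higher with LEV on both sides, with H3 genes furthest above 0. At 7 d the rows lay below 0 with LEV on the infarcted side and above 0 on the other side. No row passed the test over both times.

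H3c7 (ENSMUSG00000100210.2, chromosome 13, 23544052 to 23545312, plus strand), an H3 gene, was at 35.7 CPM in naive, 52.9 and 33.5 CPM at 7 d, 44.4 and 54.5 CPM at 7 d with LEV, 29.8 and 34.4 CPM at 1 m, 74.9 and 60.7 CPM at 1 m with LEV, and 16.3 and 16.6 CPM at 2 m. Both PT 1 m LEV libraries were above the 9 others and both 2 m libraries below them. H4c8 (chromosome 13, 23531050 to 23531519), an abundant H4 gene, was at 334 CPM in naive, 318 and 297 CPM at 7 d, 296 and 278 CPM at 7 d with LEV, 409.6 and 418 CPM at 1 m, 733 and 643 CPM at 1 m with LEV, and 296 and 225 CPM at 2 m. H4c4, the H4 row with the most reads, stood at 1483 and 1448 CPM at 1 m with LEV, 1119 and 1082 CPM at 1 m and 784 to 1006 CPM in the other 7 libraries. For all 3 genes, the PT 1 m LEV libraries were the highest and did not overlap with the rest.

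By limma 0 of 45 rows passed, and 0.0125% of all genes were called higher with LEV and 0.00623% lower. The fit averages LEV over both times, and its 1 residual degree of freedom is the change of the LEV difference between them. It is thus a weak test of a LEV difference seen at 1 m only. At an unadjusted p under 0.05 there were 10 histone rows and 980 of all genes, edgeR called 0 rows and DESeq2 called 1. The smallest adjusted p values were those of H3c7 (0.64, SE 0.15, adjusted p = 0.306), H3c13 (0.50, SE 0.13, adjusted p = 0.456) and H4c1 (0.34, SE 0.13, adjusted p = 0.791). The median over 45 rows was 0.19 (-0.02 over all genes) and 37 lay above 0 (45.6% of all genes did). Without PT 7 d infarcted, 8 rows passed, all higher.

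At 1 m, 15 of 45 rows were higher with LEV by a log2 of at least 0.5 on both sides, where 1.8% of all genes were, and 0 were lower to that extent (1.33%). They were 7 of 10 H3 rows (H3c2, H3c3, H3c7, H3c8, H3c10, H3c11 and H3c13), 3 H2B, 3 H4 and 2 H2A rows. Medians over 45 rows were 0.42 and 0.41 for the infarcted and the other side, against -0.06 and -0.02 over all genes. On the infarcted side the median was 0.71 for H3, 0.41 for H4, 0.38 for H2B and 0.37 for H2A. H3c3 gave 1.73 and 1.28, H3c7 1.30 and 0.80, and H4c9, an H4 gene, 1.2 and 1.03. H4c14 lay furthest the other way, at -0.61 and -0.41, from 192 and 171 CPM at 1 m to 126 and 128 CPM with LEV. H2ac8 (-0.21 and -0.36), H4c12 (-0.34 and -0.12), H2bc11 (-0.03 and -0.20) and H2bc12 (-0.05 and -0.09) were also lower on both sides. On the infarcted and the other side, 40 and 37 of 45 rows lay above 0 (42.5% and 46.6% of all genes). Both PT 1 m LEV libraries stood above the 9 others in 19 of 45 rows (10% of all genes), 7 of which were H4 rows.

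At 7 d, 0 of 45 rows were higher with LEV by 0.5 on both sides (0.156% of all genes) and 0 lower (0.081%). On the infarcted side 39 of 45 lay below 0 (median -0.31), while 47.1% of all genes lay above 0. Of the 45 rows, 16 were lower by at least 0.5, where 1.84% of all genes were. H3c2 gave -1.74, H2ac10 -1.28, H2ac12 -1.20 and H3c3 -1.11, and these are rows that stood high in PT 7 d infarcted, the library both comparisons share. On the non-infarcted side 39 of 45 lay above 0 (median 0.25), where 53.5% of all genes did. Whether the effect of LEV differed between 7 d and 1 m was not tested, since the 4 condition means leave no residual degree of freedom for it.

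**Figure D5:**
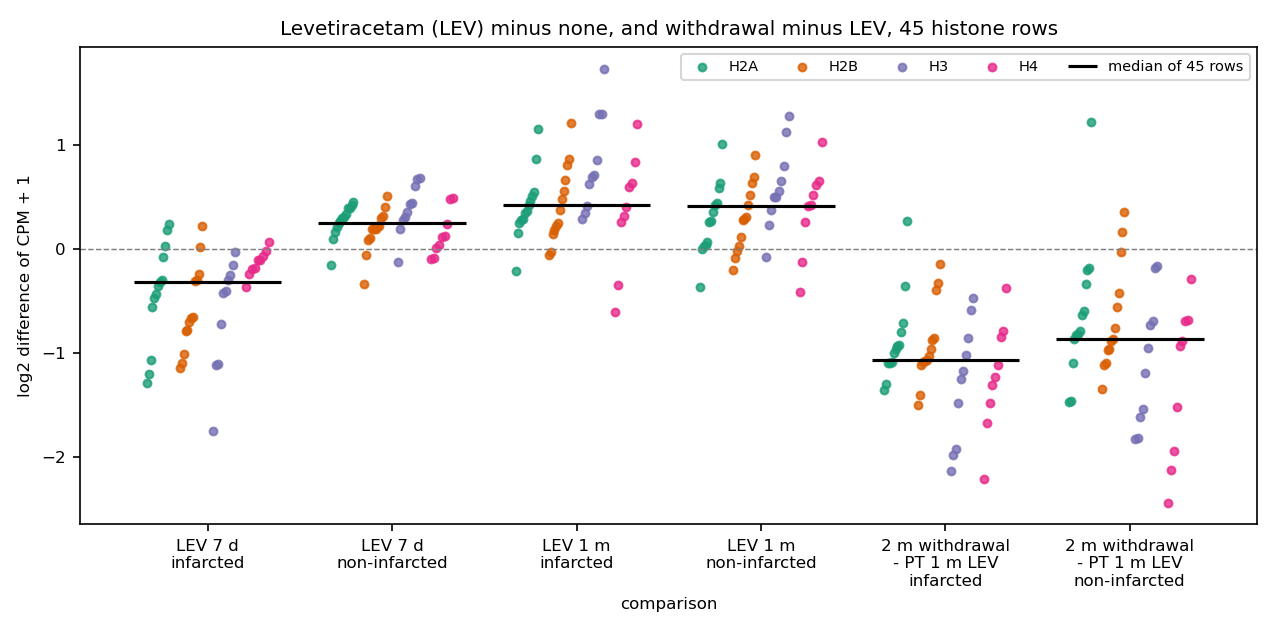
Each point is a histone row's log2(CPM + 1) difference, colored by family, for LEV minus no LEV at 7 d and 1 m on each side and for 2 m after withdrawal minus PT 1 m LEV, and the line is the median of 45 rows. Medians are -0.31 and 0.25 at 7 d, 0.42 and 0.41 at 1 m, and -1.07 and -0.86 after withdrawal.

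For the S phase, histone mRNA processing, variant and linker lists, the medians at 1 m with LEV lay between -0.15 and 0.05. On the infarcted and the other side they were -0.15 and -0.04 for 23 S phase genes, -0.10 and 0.05 for 20 genes of histone mRNA processing, -0.06 and -0.02 for 11 replication-independent variants and 0.05 and 0.00 for 4 linker histone genes. Of the linker genes, H1f2 was at 140 and 132 CPM with LEV and 100.2 and 103 CPM without, and H1f4 at 295 and 278 CPM and 239 and 249 CPM, while the scarce H1f1 and H1f5 were lower with LEV on both sides. The linker sum was 440.1 and 417 CPM with LEV and 347 and 360.5 CPM without. The difference between these lists and the histone rows was not tested. The mitosis sum was 11 and 12.9 CPM with LEV and 10.5 and 11 CPM without. Choroid plexus markers summed to 1773 and 102 CPM in the PT 1 m LEV libraries and to 55.0 and 1425 CPM in those of PT 1 m, and their part in the histone difference was not tested. Against naive, 2 of 45 rows (H2ac12 and H2bc12) were higher by 0.5 on both sides at 1 m (0.442% of all genes) and 23 of 45 at 1 m with LEV (2.3%).

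The last comparison set 2 m after PT, following withdrawal, against 1 m with LEV, where time and withdrawal changed together and no test was made. It also crosses the split of naive and 1 m from 7 d and 2 m libraries, seen in 9 of 45 rows (6.81% of all genes). For those rows the split cannot be told apart from time or withdrawal. Most histone rows were lower at 2 m. H4c9, at 35.7 and 33.6 CPM at 1 m with LEV, was at 6.92 and 5.40 CPM at 2 m, and naive was at 14.6 CPM. H3c1 went from 37.6 and 30.7 CPM to 8.83 and 7.95 CPM, with naive at 19.9 CPM. For both genes the 2 m libraries were the lowest of the 11.

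A drop by a log2 of at least 0.5 on both sides was seen in 33 of 45 rows, where 8.43% of all genes showed it, and a gain of that size in 0 of 45 (13%). These 33 were 9 H2A, 9 H2B, 8 H3 and 7 H4 rows. The median was -1.07 and -0.86 for the infarcted and the other side, while the median of all genes was 0.13 and 0.09 and came to -0.00 and 0.01 with TMM scaling, under which the histone medians were -1.18 and -0.95. Both 2 m libraries were below the 9 others in 25 of 45 rows (11.9% of all genes). Against naive, 13 of 45 rows were lower by at least 0.5 on both sides at 2 m (7.81%) and 2, H2ac12 and H3c2, higher (8.74%). H2ac12 was an exception to the drop, at 2.78 and 5.81 CPM against 2.14 and 1.92 CPM at 1 m with LEV. Linker histone genes had medians of -0.45 and -0.33 in this comparison, replication-independent variants -0.25 and -0.37, and S phase genes 0.16 and 0.18. Cell type markers differed between the same libraries. Oligodendrocyte markers summed to 4145 and 4878 CPM at 2 m and 2939 and 3106 CPM at 1 m with LEV, and meninges markers to 154 and 117 CPM and 95.5 and 85.4 CPM. Choroid plexus markers summed to 4004 and 1257 CPM at 2 m and to 1773 and 102 CPM at 1 m with LEV. The part of these cells in the histone drop was not tested.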

How the data were processed

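CAGE libraries from total RNA of the whole hippocampus were selected by cap-trapping after random priming, per the labels' protocols. The authors deposited CPM per gene for 11 libraries. The tools BWA 0.7.17, HISAT2 2.0.5 and DESeq2 1.20.0, and the build GRCm38, are listed in the submitters' notes on processing. Their roles, the annotation and the counting rule were not given in those sources. All 246147 deposited CPM values converted to reads that were whole within 0.0001, so totals and reads were recovered. The identifiers of all 47 rows were matched to GENCODE M21, and 41 were matched to RefSeq promoters.

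Differences were computed on log2(CPM + 1) for the 16057 genes with a mean of at least 1 CPM, fitted in R 4.3.3 by limma 3.58.1 with moderated, trended variances, two-sided tests and Benjamini-Hochberg adjustment over all genes. Sides were compared over 10 PT libraries with condition as a block. Time and LEV were fitted on 4 condition means over sides, and the side difference between times on 4 differences. Comparisons of single libraries have no test. EdgeR 4.0.16 and DESeq2 1.42.0 on the recovered reads were alternatives, beside TMM scaling, pseudocounts of 0.25 and 5, other filters, no trend, 8 libraries as independent and leaving libraries out. Fits were also run on simulated counts in which only planted changes set the libraries apart, so this does not check the limits named above.

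The histone rows and the 16 gene lists were chosen with earlier results of these data known. Rows were named if the rule names them, if they passed a test, had the 3 smallest p of a test or the most reads of their family. H3c2, H4c9, H2bc12 and other rows outside this rule were named after their values were seen.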

Additional observations from a re-analysis of the deposited data

Results flagged for a closer look

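H3c3 is listed because its side difference had opposite signs at 7 d (2.48, and 1.49 with LEV) and 1 m (-0.46 and -0.01). The difference of 2.22 did not pass (limma adjusted p = 0.836). H2ac21 (-0.15 and -0.12, then 0.33 and 0.23) differed by -0.42 and H2bc21 (-0.13 and -0.11, then 0.36 and 0.24) by -0.42 as well, and these rows may share reads. H4c3 (-0.13 and -0.10, then 0.10 and 0.10) differed by -0.21, and none of the 3 passed (limma adjusted p = 0.836, 0.836 and 0.867).

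The LEV difference turned in sign between 7 d and 1 m on both sides for 3 named rows. H3c3 was at -1.11 and -0.12 at 7 d and 1.73 and 1.28 at 1 m, a difference of 2.13. H4c8 was at -0.10 and -0.09, then 0.84 and 0.62, a difference of 0.83, and H2ac12 at -1.20 and -0.15, then 0.25 and 0.03, a difference of 0.81. These differences were not tested.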

How the results depend on the processing

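No paired analysis was possible because each group has 1 library and the labels give no replicate numbers; the pairing of sides is part of the side test. For time, the 13 rows called higher became 5 with TMM scaling and 0 without a filter, where 24 genes were called in all, and 7 to 21 with 1 library left out. The 2 rows called lower became 0 with TMM scaling, edgeR, DESeq2, no filter, 8 libraries as independent or without PT 1 m infarcted together with the other side of PT 1 m LEV (low in choroid plexus genes), and 1 with a pseudocount of 5, a filter at 5 CPM or no trend. With 1 library left out they ranged from 0 to 3. For LEV, the count of 0 higher became 1 with DESeq2 and 0 to 8 with 1 library left out, 8 of them without PT 7 d infarcted. The median side difference of 7 d against 1 m reversed to -0.13 without the PT 7 d pair and was 0.47 without the PT 7 d LEV pair. The causes were not tested. The side counts stayed at 0 in 13 of 13 alternatives, and the median stayed above 0 (0.05 to 0.20). Over all genes the calls ranged from 0 to 50 for side, 24 to 4991 for time and 0 to 110 for LEV. TMM scaling and a pseudocount of 0.25, for the last 2 results added after the data were seen, gave 33 to 35 rows for withdrawal, 24 to 26 for PT 1 m LEV against naive, 13 to 17 for 2 m against naive, 16 to 18 for LEV at 1 m and 12 to 14 for side at 7 d. Levels near 1 CPM rest on few reads (12 for H2ac12 in naive).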
